A study of Mus musculus with 8 samples.

Results

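The HoxB genes are the 10 homeobox genes that lie side by side on mouse chromosome 11, from Hoxb13 at one end to Hoxb1 at the other. They were taken by name from the RefSeq table of GRCm38.p6, which names the same assembly as mm10, and make up 10 of its 21887 protein-coding genes on the autosomes, X and Y. They were selected on the control peak list, in which each carried H3K79me2, so their control values are given as a description and are not tested. The mark was profiled by ChIP-seq (chromatin immunoprecipitation and sequencing) in cultures of mouse spermatogonial stem cells, which sustain sperm production. They were derived from testicular cells of 7-day-old mice of the strain B6.129S7-Gt(ROSA)26Sor/J, which carry a LacZ reporter in every tissue. Both the control and the EPZ5676 cultures had been kept for 2 months on SNL 76/7 feeder cells with GDNF (10 ng/mL) and FGF2 (0.5 ng/mL). The treated cultures then received 2 µM EPZ5676, which inhibits the histone methyltransferase DOT1L, and the controls received vehicle. Cells were fixed after 7 days. The labels' protocols give DMSO as the vehicle, whereas the control sample descriptions carry the abbreviation EtOH, and this difference was not resolved. The series holds 8 samples in 4 groups of 2 (H3K79me2 and input chromatin for each treatment), and each treatment has 1 H3K79me2 peak list. No value below therefore has a replicate error, no test between treatments was possible, and the read depth is unknown.

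H3K79me2 is placed by DOT1L on the bodies of genes that RNA polymerase II is transcribing, and is usually densest in the part of the gene just after its start. Hox genes encode homeodomain transcription factors that give cells their position along the head-to-tail axis, and their order on the chromosome follows the order in which they are used along that axis. DOT1L is best known for holding Hox genes active in leukaemias with MLL fusions. The cluster also holds antisense and other long noncoding RNAs, and microRNA genes whose products repress Hox and other messages.

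The HoxB microRNA genes differed in whether the mark reached them, so their mature sequences are shown with those of their relatives from other Hox clusters. Sequences are from RefSeq (GRCm38.p6), 5′ to 3′, and capitals mark the seed, bases 2 to 8, which sets most of the pairing with target messages.
miR-10a-5p (Mir10a, HoxB): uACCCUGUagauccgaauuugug
miR-10b-5p (Mir10b, HoxD): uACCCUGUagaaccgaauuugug
miR-196a-5p (Mir196a-1, HoxB, and Mir196a-2, HoxC): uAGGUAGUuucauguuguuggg
miR-196b-5p (Mir196b, HoxA): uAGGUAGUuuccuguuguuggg
Counted from the 5′ end, miR-10a-5p and miR-10b-5p differ only by U12A, and miR-196a-5p and miR-196b-5p only by A12C, so each pair shares its seed. The Mir10a hairpin (chromosome 11, 96317165 to 96317274) lay whole inside a control peak of fold enrichment 3.68. That was the highest fold in the cluster. The Mir196a-1 hairpin (96265164 to 96265265) lay in a gap of 6869 bp between control peaks, 1321 bp after one peak and 5446 bp before the next. No control peak touched Mir10b, Mir196a-2, Mir196b or Mir615, another microRNA gene of HoxC. Mir196a-2 lay 431 bp from its nearest control peak and Mir10b 98325 bp from its own. Of all 1228 microRNA genes in the table, 14.2% were touched by a control peak. No EPZ5676 peak touched any of the 6 hairpins.

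In control cells, peaks spread over HoxB from Hoxb9 to Hoxb2 with breaks of at most 2257 bp. Hoxb13, with a few peaks around it, and Hoxb1, with a single peak, lay apart from that stretch. The cluster runs 173939 bp, from 96194316 to 96368254. It was touched by 22 control peaks, which covered 91243 bp, or 52.5% of its length. Summed over the cluster, the gene spans were covered over 64381 of 75140 bp (85.7%), and the sequence between them over 26862 of 98799 bp (27.2%). Between genes in the stretch from Hoxb9 to Hoxb1, 39.8% was covered. Width ranged from 189 to 14809 bp with a median of 3907 bp, and 18 of the 22 peaks were wider than the control list's median of 1102 bp. Fold enrichment, the authors' ratio of signal to background for a peak, ranged from 2.13 to 3.68 with a median of 3.00. It was above the list's median of 2.30 in 19 of the 22. The highest fold in the whole control list was 10.4, and 9.82% of its peaks had a fold as high as the highest in HoxB. Most HoxB peaks were thus both wider and of higher fold than the list's median, and all were well below its highest fold. For example, 16.2% of control peaks had a fold as high as the Hoxb5 peak (3.01), and 20.3% were as wide as the 4029 bp peak over Hoxb7.

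**Figure D1:**
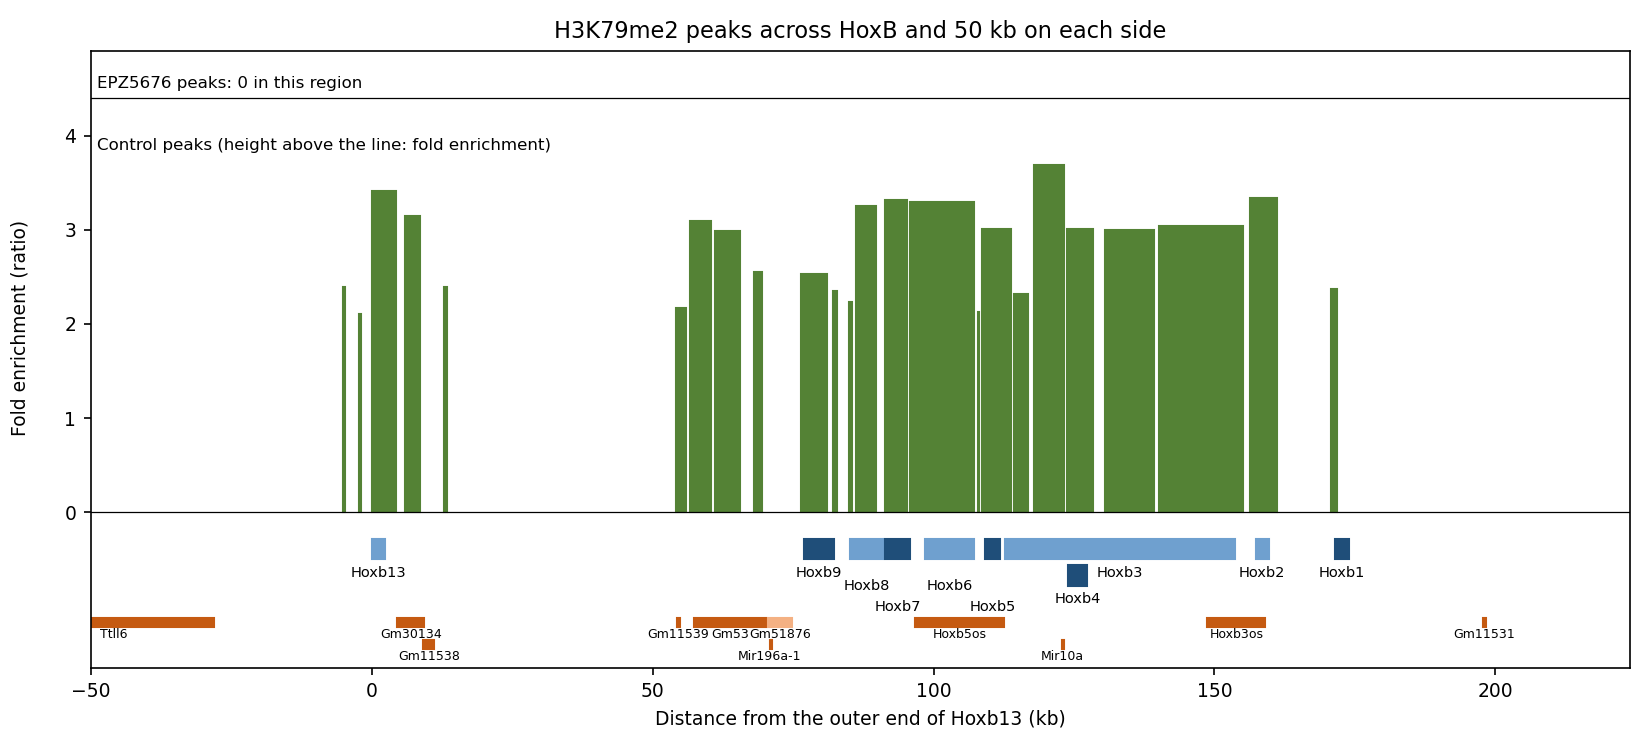
Control H3K79me2 peaks (green, height is the authors' fold enrichment) across the cluster and 50 kb on each side, above HoxB genes (blue) and other RefSeq genes (orange; lighter shades only part neighbours), by distance in kb from the outer end of Hoxb13. The 22 peaks in the cluster leave a break of 40766 bp between Hoxb13 and Hoxb9, no control peak lies in the 50 kb beyond Hoxb1, and the EPZ5676 list has 0 peaks in the region.

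All 10 genes were marked in the control, where a gene counts as marked when a peak covers at least 1 bp of its span. This share is fixed by how the genes were chosen, and 52.7% of all protein-coding genes were marked. HoxB genes are short, with spans of 2295 to 8756 bp apart from Hoxb3 (40830 bp), and among the 4512 protein-coding genes of 2295 to 8756 bp the share marked was 44.4%. The median covered share was 94.5% of the span over the 10 HoxB genes, 32.6% over all control-marked genes and 2.15% over all protein-coding genes. At least 80% of the span was covered in 8 of the 10, against 4.09% of all protein-coding genes and 7.42% of those of 2295 to 8756 bp. These background shares, and those set beside HoxB at other thresholds, include unmarked genes, whereas the HoxB genes were chosen as marked. Of the 4512 genes of that size, 2002 were marked and 335 reached 80%. The highest fold per gene was close to that of marked genes in general, with a median of 3.27 in HoxB and 3.33 over all control-marked genes. With peaks of −log10 q at least 2, 10 HoxB genes were marked, against 48.4% of all protein-coding genes. With at least 500 bp of the span covered it was 9 against 50.6%, and with at least 50% of the span it was 9 against 15.9%. The 10 genes are not independent, because only 15 peaks touched a HoxB gene and 3 of those touched more than 1.

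The anterior genes, Hoxb1 to Hoxb4, act in the hindbrain and neck region. Hoxb1, which specifies a hindbrain segment, was the least covered member. Its only peak (96365014 to 96366215) ran 1202 bp with a fold of 2.37 and a −log10 q of 2.38, and covered 470 of its 2509 bp. Before it lay an uncovered stretch of 9522 bp towards Hoxb2, and after it none of the 50 kb on that side was covered. Hoxb2, also a hindbrain gene, lay whole within a peak of 4871 bp (96350621 to 96355491) with a fold of 3.33 and a −log10 q of 6.95. The neighbours at this end of the cluster thus differed, with all 2389 bp of Hoxb2 covered and the greater part of Hoxb1 not.

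Hoxb3, whose long span encloses Hoxb4 and Mir10a, was touched by 6 peaks that covered 35576 of its 40830 bp. One of them was the widest of the cluster, 14809 bp (96334511 to 96349319) with a fold of 3.04, and 5.14% of control peaks were as wide. Another held the highest fold and −log10 q of HoxB, 3.68 and 9.27, over 5253 bp (96312269 to 96317521), and ended 247 bp after the Mir10a hairpin. Hoxb4, known for expanding blood stem cells in culture, lay whole within the next peak (96318058 to 96322731), with a fold of 3.01 and a −log10 q of 5.30. Since Hoxb4 sits inside the Hoxb3 span, this peak counts for both genes.

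The central genes, Hoxb5 to Hoxb8, act in the trunk. Hoxb5 was covered over its whole 2610 bp by a peak of 5236 bp with a fold of 3.01, which reached on into Hoxb3. Hoxb6 was covered over 8739 of 8756 bp by the second widest peak of the cluster, 11433 bp (96290120 to 96301552), with a fold of 3.29 and a −log10 q of 7.05. That peak also took in the whole 2650 bp between Hoxb7 and Hoxb6 and the right-hand end of Hoxb7. Most of Hoxb7 lay under its own peak of 4029 bp with a fold of 3.31, and 4069 of its 4560 bp were covered. Hoxb8 was touched by a narrow peak of 506 bp (fold 2.23) and a peak of 3561 bp (fold 3.25), which left 1933 of its 5925 bp uncovered. The highest fold of these 4 genes thus ranged only from 3.01 to 3.31, while their covered shares ran from 67.4% at Hoxb8 to 100% at Hoxb5.

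The posterior genes, Hoxb9 and Hoxb13, act towards the tail, and Hoxb13 is also a prostate and hindgut factor. Hoxb9 was touched by a peak of 4618 bp and a peak of 714 bp, and 4241 of its 5266 bp were covered. Its highest fold was 2.53 and its highest −log10 q 3.05, below every HoxB gene except Hoxb1. Hoxb13 lies apart from the rest, 74719 bp from Hoxb9, and its whole 2295 bp lay under a peak of 4296 bp (96194311 to 96198606) with a fold of 3.41 and a −log10 q of 7.44. Only the peak at Mir10a had a higher fold in the cluster. Outside Hoxb13, 840 bp of the next 50 kb were covered, by 2 peaks of 437 and 398 bp and the edge of the Hoxb13 peak.

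**Figure D2:**
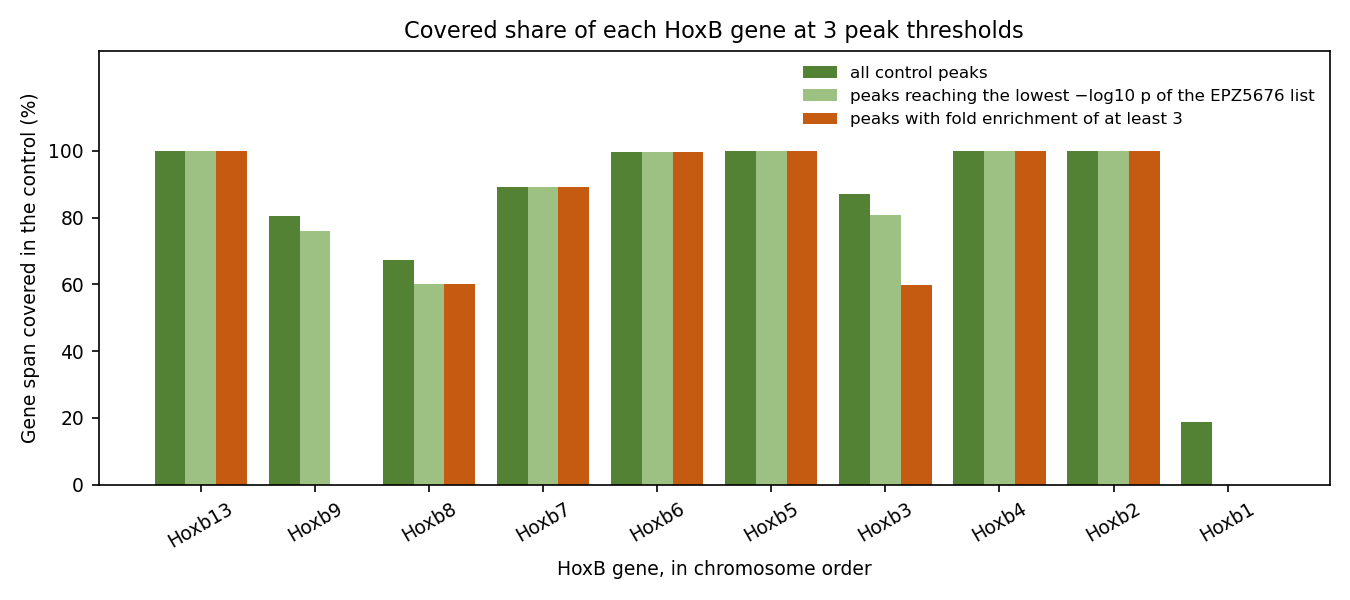
Share of each HoxB gene span (%) covered by control peaks, for all peaks, for peaks that reach the lowest −log10 p of the EPZ5676 list (4.03) and for peaks with a fold of at least 3. Hoxb1 has no bar at the last 2 settings and Hoxb9 none at the last, while Hoxb13, Hoxb5, Hoxb4 and Hoxb2 stay at 100%.

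The wide interval between Hoxb13 and Hoxb9 held peaks at both of its ends and an empty middle. Of its 74719 bp, 17273 bp (23.1%) were covered by 8 peaks, those over Hoxb13 and Hoxb9 included, and 40766 bp in a row (96207763 to 96248528) had none. On the Hoxb13 side, a peak of 2563 bp with a fold of 3.15 lay on the long noncoding RNA gene Gm30134, of which 53.8% was covered. The overlapping Gm11538 had no peak. On the Hoxb9 side, 3 peaks covered 9038 of the 12825 bp of Gm53, another long noncoding RNA gene, with a highest fold of 3.10, and a peak of fold 2.16 covered the pseudogene Gm11539. Gm51876, the noncoding gene that contains Mir196a-1, had none. The antisense genes within the cluster were covered much as the coding genes they overlap, Hoxb5os over 14720 of 15874 bp (92.7%) and Hoxb3os over 9060 of 10361 bp (87.4%). Peaks carry no strand, so the mark at Hoxb5os cannot be told apart from that at Hoxb5 and Hoxb6, nor that at Hoxb3os from that at Hoxb3 and Hoxb2. Over all 12727 long noncoding RNA genes in the table, 16.7% were touched by a control peak. The nearest coding genes outside the cluster were Ttll6 on the Hoxb13 side, 28134 bp away with no control peak, and Skap1 beyond Hoxb1, 96316 bp away with 2548 of 295053 bp covered (0.864%).

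Control peaks also ran across the 3 HoxB gene starts that could be examined, where most genes had none. The promoter table gives a window from 250 bases before to 50 after the start for 3 HoxB genes, Hoxb8, Hoxb4 and Hoxb1, and for Hoxb3os. The windows of the coding genes are shown because peaks covered most or all of each. Sequences are from RefSeq (GRCm38.p6), 5′ to 3′ along the gene, and the windows shown are on the plus strand. Capitals mark matches to TATAAA, the core promoter element, and to TGATNNAT, a form of the site bound jointly by PBX and HOX proteins, on either strand.
Hoxb8, chr11:96281655-96281954: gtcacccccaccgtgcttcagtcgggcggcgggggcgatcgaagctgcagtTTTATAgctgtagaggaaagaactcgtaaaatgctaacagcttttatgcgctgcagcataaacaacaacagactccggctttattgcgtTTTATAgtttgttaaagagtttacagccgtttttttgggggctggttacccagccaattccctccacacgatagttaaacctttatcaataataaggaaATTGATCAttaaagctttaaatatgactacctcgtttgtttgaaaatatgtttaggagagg
Hoxb4, chr11:96318017-96318316: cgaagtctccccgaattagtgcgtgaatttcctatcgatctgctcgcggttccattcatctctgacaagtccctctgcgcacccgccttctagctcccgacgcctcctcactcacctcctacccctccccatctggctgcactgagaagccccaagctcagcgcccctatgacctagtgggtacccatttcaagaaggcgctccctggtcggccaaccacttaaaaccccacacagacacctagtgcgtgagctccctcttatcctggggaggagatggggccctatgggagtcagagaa
Hoxb1, chr11:96365508-96365807: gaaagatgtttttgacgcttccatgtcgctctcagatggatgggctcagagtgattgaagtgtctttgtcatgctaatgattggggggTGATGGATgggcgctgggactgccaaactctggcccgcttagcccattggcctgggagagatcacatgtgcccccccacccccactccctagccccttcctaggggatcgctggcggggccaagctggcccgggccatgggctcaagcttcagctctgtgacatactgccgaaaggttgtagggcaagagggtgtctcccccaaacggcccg
Control peaks covered all 300 bases of the Hoxb8 and Hoxb1 windows and of the Hoxb3os window, and 259 of the 300 at Hoxb4. Of 17492 protein-coding genes with a window, 11.8% had any control peak on it, 0.0743% any EPZ5676 peak, and 7.49% had a window covered whole by control peaks. These shares include genes unmarked in the control, whereas the HoxB genes were chosen as marked. The Hoxb8 start in this table (96281905) lies inside the Hoxb8 span used above, which begins at 96279401. The Hoxb8 peak reached 1370 bp before that start, all of it within the span, and 2190 bp after it. At Hoxb4 it reached 209 bp upstream and 4464 bp downstream. At Hoxb1 it reached 744 bp upstream and only 457 bp downstream. Over 21263 starts of protein-coding genes, the share covered was 8.73% at the start itself, 43.9% at 1500 bp downstream and 17.4% at 1500 bp upstream. The Hoxb1 peak thus lay where coverage was lowest over all genes, and was absent where it was highest.

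**Figure D3:**
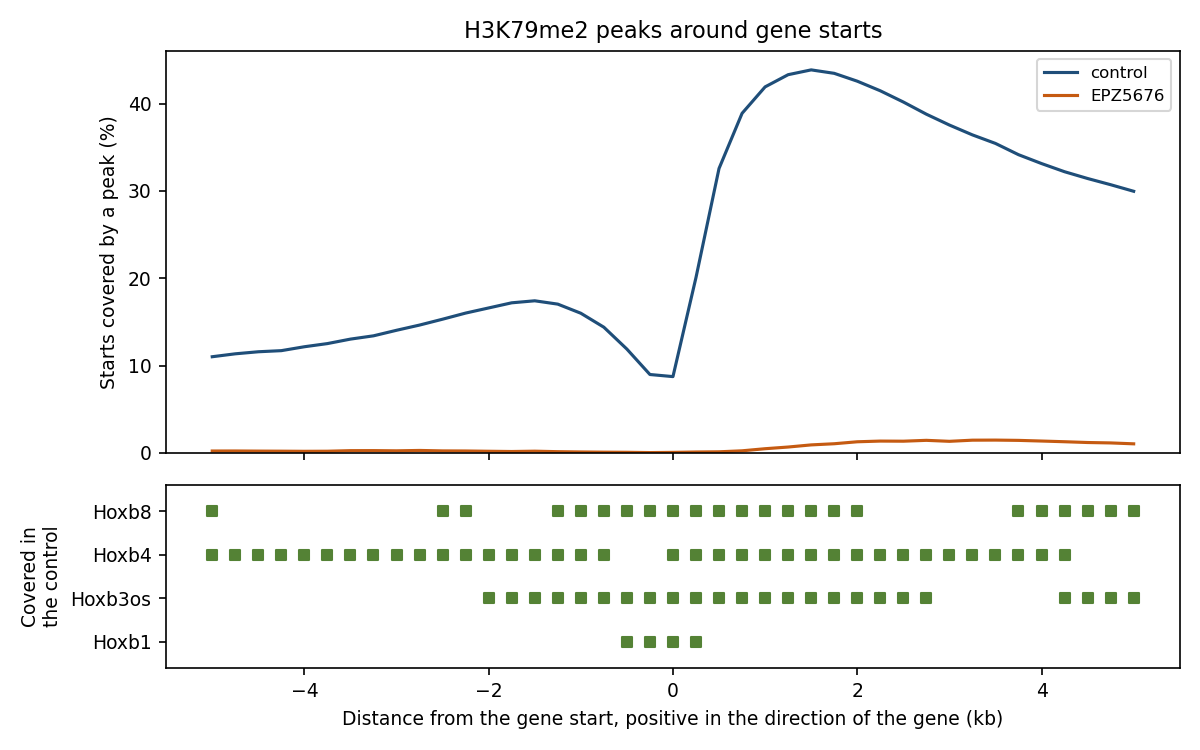
Top: share of 21263 protein-coding gene starts (%) covered by a control or an EPZ5676 peak, by distance from the start in kb. Bottom: positions covered in the control around the starts of Hoxb1, Hoxb3os, Hoxb4 and Hoxb8; all 4 are covered at the start, where 8.73% of all starts are.

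In base content the windows were not alike. Hoxb8 had 13 CpG dinucleotides and 42.3% G and C, Hoxb4 had 14 and 58.0%, and Hoxb1 had 10 and 59.3%. The median over all 32851 windows was 7, with 17 in the 3288 windows touched by a control peak. TATAAA matched at 2 places in the Hoxb8 window, both on the strand opposite to the gene, and in neither of the others. It was held by 13.6% of all windows and by 8.7% of those touched by a control peak. TGATNNAT matched at 1 place in the Hoxb8 and Hoxb1 windows and not at Hoxb4. It was held by 8.85% of all windows and by 5.41% of those touched by a control peak. No match overlapped another, and a match of letters does not show that a factor binds.

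After EPZ5676, no HoxB gene had a peak. The EPZ5676 list held 0 peaks in the cluster and within 100 kb on each side. None of the 22 control peaks of HoxB was overlapped, against 6.48% of all control peaks that were. Of all protein-coding genes, 12.3% had an EPZ5676 peak, and of the control-marked ones 19.3%. Among the 4512 genes of 2295 to 8756 bp the share was 1.51%. Among the 3327 genes inside the HoxB ranges of span, control-covered length and highest control fold it was 4.15%. A count of 0 in 10 is thus near the background of genes of this size and coverage. At the density on chromosome 11, 4.07 EPZ5676 peaks per Mb, a stretch as long as the cluster would hold 0.708 of a peak. The lowest −log10 p in the EPZ5676 list was 4.03, against 2.36 in the control list. Of the 22 control peaks in HoxB, 15 reached that floor, and they covered 83718 bp and touched 9 of the 10 genes, where 44.7% of all protein-coding genes had such a peak. The gene without one was Hoxb1, whose only control peak had a −log10 p of 3.80 and would not have reached the lowest value of the EPZ5676 list.

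The other 3 Hox clusters carried fewer, narrower control peaks. HoxC (115726 bp on chromosome 15) was covered over 10.5% of its length by 12 peaks with a median width of 1152 bp and folds of 2.07 to 2.97. HoxA (105514 bp on chromosome 6) was covered over 2.82% by 3 peaks of fold 2.06 to 2.23, and HoxD (96918 bp on chromosome 2) had none. The widest peak was 1938 bp in HoxC and 1214 bp in HoxA, and 15 of the 22 HoxB peaks were wider than either. No gene of the other clusters was covered over more than 37.5% of its span (Hoxc10), while every HoxB gene other than Hoxb1 was covered over at least 67.4%. With 1 control list, none of these differences could be tested. The HoxB genes were also chosen as marked in the control. Their side of the counts of marked genes below is therefore fixed or favoured by that choice. By paralogue group, the sets of genes that descend from the same ancestral Hox gene, HoxB held the only control-marked member of groups 2, 3, 5, 7 and 8. In groups 4, 6, 9 and 13 a HoxC member was marked as well, namely Hoxc4, Hoxc6, Hoxc9 and Hoxc13. HoxB has no gene in groups 10 to 12, where Hoxa10, Hoxc10 and Hoxa11 were marked. With control peaks of fold at least 3, 8 HoxB genes and 0 of the 29 genes of the other clusters were marked, against 31.7% of all protein-coding genes. None of the 4 clusters had an EPZ5676 peak.

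**Figure D4:**
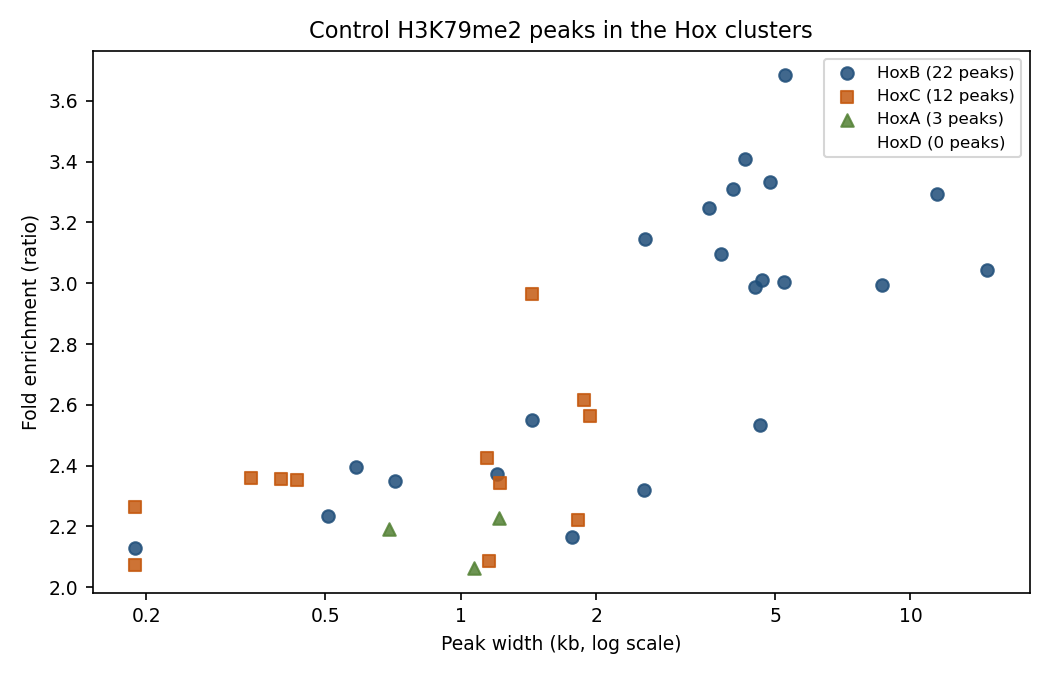
Width (kb, log scale) and fold enrichment of each control peak that touches a Hox cluster. The 22 HoxB peaks reach 14809 bp and a fold of 3.68, the 12 HoxC peaks 1938 bp and 2.97, and the 3 HoxA peaks 1214 bp and 2.23; HoxD has 0.

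Genes known to regulate Hox clusters were marked in control cells to very different extents. All 7 genes of the MLL complex, which methylates H3K4 and keeps Hox genes active, were marked, led by Kmt2a, its catalytic subunit (31277 bp). EPZ5676 peaks covered 266 bp of Kmt2a and 175 bp of Wdr5, a core subunit. All 14 Polycomb genes, whose products silence Hox clusters, were marked as well, with the longest coverage at Phc2 (33646 bp). An EPZ5676 peak lay on Rnf2, the ubiquitin ligase over 2650 bp (21007 bp in the control), and on Ezh2, the H3K27 methyltransferase, over 1093 bp (22648 bp in the control). The shares of all protein-coding genes marked were 52.7% and 12.3%.

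Of 12 genes of the retinoic acid pathway, which switches on the anterior HoxB genes in embryos, 5 were marked in the control, against 52.7% of all protein-coding genes. Rxra, a retinoid receptor partner, had 64355 control-covered bp and 10880 bp under EPZ5676 peaks. Rara, a retinoic acid receptor gene, had 38054 control-covered bp and 372 bp under an EPZ5676 peak. Rarb (715 of 651493 bp) and Aldh1a1, which makes retinoic acid (634 of 150881 bp), had EPZ5676 peaks only. Both are long genes, as the median span of all protein-coding genes was 17169 bp. An EPZ5676 peak lay on 12.3% of all protein-coding genes. Of 9 PBX, MEIS and PKNOX genes, whose products bind DNA together with Hox proteins, 5 were marked, a share near that background. Pknox2, also long, had only EPZ5676 peaks (929 of 256364 bp). None of the 3 CDX genes (Cdx1, Cdx2 and Cdx4), which encode activators of central Hox genes, was marked in either list. HoxB genes were thus marked in cells without a peak on any CDX or MEIS gene.

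The labelled cell type was checked against markers. All 10 markers of undifferentiated spermatogonia and all 5 of germ cells had a control peak, and none had one after EPZ5676, against shares of 52.7% (control) and 12.3% (EPZ5676) over all protein-coding genes. Their median covered shares were 62.6% and 31.2%. Of 10 fibroblast markers, 7 were marked in the control, with a median covered share of 9.14% and highest folds of 2.08 to 2.65, while Col1a2, Col3a1 and Vim had no peak. EPZ5676 peaks lay on Twist2 (2907 bp, with 12557 bp in the control) and on Prrx1 (3583 bp, with 11779 bp in the control). Of 6 testis somatic markers, 2 were marked, Wt1 and Amh. The fibroblast count is thus above, and the testis somatic count below, the share over all protein-coding genes, on few genes. The labels' protocols name no separation of germ cells from feeder cells, and the part of feeder chromatin in the HoxB peaks was not tested.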

How the data were processed

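H3K79me2 and input chromatin were sequenced from control and EPZ5676-treated cultures, and the 2 deposited H3K79me2 peak lists, 1 per treatment, were analysed here. The submitters' processing notes name the build mm10 and the tools Trimmomatic, deepTools and bcl2fastq (2.20.0.422). The aligner, the peak caller and any pooling of replicates are not stated there. Each list has no header and the layout of broad peak calls. The deposited score equals 10 times the −log10 q-value, cut to a whole number, except in 4 control peaks. The fold enrichment the authors deposited is a ratio per peak, and they also give each peak's −log10 of p and of q. These values only described, ranked or filtered peaks.

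Gene spans came from RefSeq GRCm38.p6. Covered bases were counted with Python 3.11.15 and pandas 2.3.3, in code tested on simulated data; an overlap needed 1 bp. Members, gene lists and alternatives were chosen with earlier results of these data known. The named genes were the HoxB genes, all RefSeq genes within 50 kb of the cluster, the nearest flanking coding genes and, per list, the longest-covered member, members with an EPZ5676 peak and, where at most 3 lacked a peak, those. Some genes under this rule are not reported here. Other Hox and marker genes were named after their values were seen. Promoter windows matched 3 of the 10 HoxB genes. Depth is not part of the lists, and no test was made. All columns used belong to a sample (0 were unmapped).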

Additional observations from a re-analysis of the deposited data

How the results depend on the processing

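All 10 HoxB genes stayed marked with a −log10 q of at least 2. The count was 9 with peaks that reach the lowest −log10 p of the EPZ5676 list (the p-value floor), with 500 bp or with 50% of the span covered (without Hoxb1), and 8 at a fold of at least 3 (without Hoxb1 and Hoxb9). On promoter windows it was 3 of the 3 genes in that table. Of the 29 other Hox genes, 8 were marked; this became 2 at the p-value floor, 4 at a −log10 q of at least 2, 0 at a fold of at least 3, 0 with 50% of the span covered and 0 of 19 on promoter windows, and stayed 8 with 500 bp. Covered bases of the HoxB cluster were 91243, 83718 at the p-value floor, 88780 at a −log10 q of at least 2 and 64505 at a fold of at least 3. From Hoxb9 to Hoxb1 alone they were 71675, or 73.9% of that stretch. The EPZ5676 count stayed at 0 with 50 and 100 kb of flank. No paired analysis was possible because each treatment has 1 peak list, and leaving out a replicate was not possible for the same reason. Sequencing depth, which sets how many weak peaks are called, is unknown for both lists.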

Other observations

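The HoxB cluster lay inside a long interval without EPZ5676 peaks. The nearest one on the Hoxb13 side was a peak of 525 bp in Igf2bp1, an RNA-binding protein gene, 194517 bp away (fold 2.72, −log10 q 1.47). Beyond Hoxb1 it was a peak of 167 bp in Npepps, an aminopeptidase gene, 908829 bp away (fold 3.02, −log10 q 2.10). Both overlapped a control peak. The interval of 1277285 bp was the 14th longest of 495 on chromosome 11, where the median was 67881 bp, and 4.31% of all 9163 such intervals were as long. It was not bare in the control, where peaks covered 236237 bp of it, 38.6% of that in HoxB. Of the 23 other protein-coding genes that lie whole within it, 15 were marked in the control. An interval that holds the whole cluster is at least as long as the cluster, 173939 bp, so it had to exceed that median. The share of 4.31% counts intervals and not bases, so it does not give how much of the genome lies in intervals as long. This interval was singled out after its length was seen.

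Some control peaks in HoxB began or ended close to the end of a gene span. The peak over Hoxb13 began 5 bp before the span, that over Hoxb7 4 bp before it, and the peak over Hoxb6 ended 17 bp before the end of that span. At the other HoxB genes the nearest peak start was between 75 bp (Hoxb8) and 2694 bp (Hoxb6) from the left end of the span. Except at Hoxb6, the nearest peak end was between 473 bp (Hoxb9) and 2039 bp (Hoxb1) from the right end. It was 1996 bp away at Hoxb13 and 535 bp away at Hoxb7, so most ends of the spans had no peak edge close by. These distances were looked at after the layout was seen.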
